A study of Mus musculus with 1 sample.

Results

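A list of 51 genes that act in the G2 and M phases of the cell cycle was followed across single alveolar macrophages (AMs), the resident phagocytes of the lung air spaces. The genes were taken by name from a list of G2/M genes and not by a threshold on their values, although the list was chosen with earlier results of these data known, and all 51 were among the 11918 genes with values. The cells were sorted as CD45+ CD11c hi Siglec-F hi from the lungs of 1 adult WT mouse, 8 to 12 weeks old, that carried Hdac3 fl/fl and no Cre, so that Hdac3 was floxed but not deleted. Its FVB/NJ background had been backcrossed to C57BL/6 for over 10 generations. Single-cell RNA-seq by 3′ tag counting was done on 1 library with 5000 cells loaded, which means that no comparison has a replicate and no p-value is given.

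During G2 and M a cell condenses its replicated chromosomes, builds a spindle, attaches kinetochores to it, separates the sister chromatids and divides. The genes for these steps are transcribed together late in the cycle, largely under the MuvB complex with B-MYB and FOXM1, and many of their proteins are degraded at mitotic exit. AMs are known to maintain themselves in the adult lung by local division.

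The values covered 2055 cells with 7222978 unique molecular identifiers (UMIs, each a counted RNA molecule), 1143 to 8603 per cell with a median of 3278, and 384 of the cells had over 5% of their UMIs on mitochondrial genes. Intervals are 95% intervals of counting error alone, Clopper-Pearson for shares of cells and exact for CPM (UMIs of a gene per 1000000 UMIs) and their ratios. UMIs at 3′ ends were not scaled by gene length, so their order among genes was read as an order of detection and not of transcript level.

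The genes differed widely in how many cells they were found in, that is, in which they had at least 1 UMI. Together they held 11842 UMIs, 0.164% of the library, and 5 genes held 52.2% of these. Hmgb2, a DNA-bending chromatin protein, was found in 1025 cells (49.9%, 47.7 to 52.1) with 2470 UMIs. Cks2 and Cks1b, small subunits that bind cyclin-dependent kinases, were found in 956 and 551 cells. Anp32e, a histone chaperone, and Tubb4b, a β-tubulin, were found in 473 and 426 cells. The other end of the range held 16 genes found in under 2% of cells, from Gtse1 and Ttk in 8 cells each to Aurka and Ect2 in 32 cells each, and 30 genes lay in between. Of the sequence near the transcript ends of Hmgb2, which is read by this assay, 49.5% of the 98-base stretches also occurred in 4 other annotated genes, and for Tubb4b 13.8% occurred in 1 other, so counts of both are less certain. The other 49 members shared none.

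Most cells held few of the genes. The median was 3 per cell, 136 cells (6.62%, 5.58 to 7.78) held none and the highest number was 35. Depth predicts how many genes should be found when each gene has the same share of UMIs in every cell. On that prediction 12.7 cells would hold 12 or more of the genes and 4.83 cells would hold 13 or more, whereas 90 and 85 cells did. The observed numbers were 7.07 and 17.6 times the predicted ones. The smallest number with at least 10 times the predicted cells, 13, was taken as several, and the 85 cells (4.14%, 3.32 to 5.09) are called cells with several G2/M genes. This prediction overstates how often a gene is found when its UMIs lie in few cells: it gave 1364 cells for Hmgb2 and 284 for Top2a, where 1025 and 128 were found. A second prediction, chosen after these values were seen, held the number of cells of each gene at the observed one and gave 0.723 cells with 13 or more, so that 85 is 118 times as many. With it, 99 cells against 7.19 predicted would pass at 11 or more genes.

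**Figure D1:**
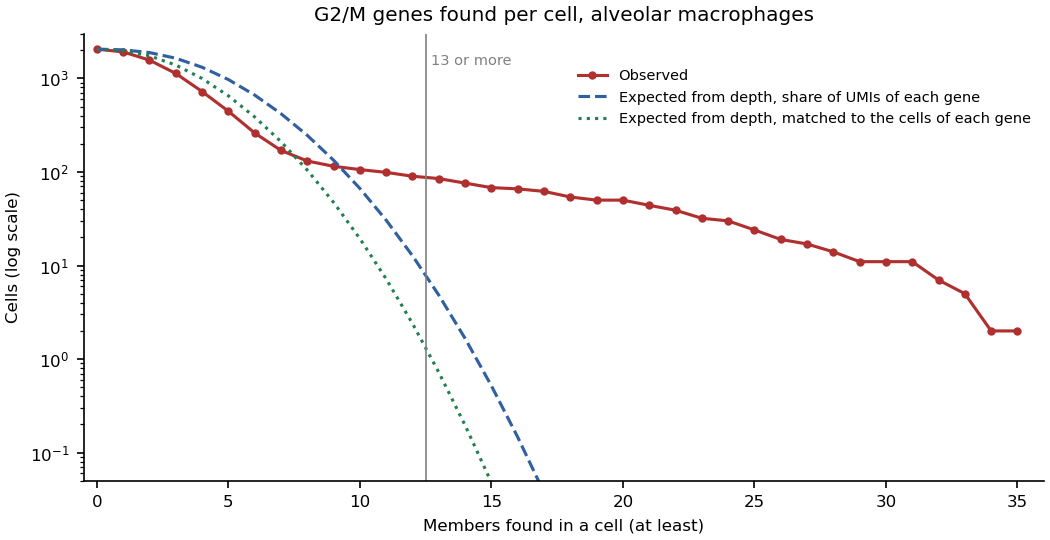
Number of cells (vertical axis, log scale) that held at least the number of G2/M genes on the horizontal axis, observed (red points) and predicted from the depth of each cell with the share of UMIs of each gene (blue dashes) or with the observed number of cells of each gene (green dots). The observed line lies below both predictions from 1 to 7 genes, rises above both from 10 genes and falls slowly from there, with 131 cells at 8 or more, 85 at 13 or more and 2 at 35.

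The number of genes per cell was a range and not a set of separate types. There were 1331 cells with 0 to 3 genes, 593 with 4 to 7, 46 with 8 to 12, 31 with 13 to 17, 22 with 18 to 22 and 32 with 23 to 35. Near the limit lay 21 cells with 10 to 12 and 19 cells with 13 to 15. The 85 cells held 38.1% of the UMIs of the 51 genes and 5.65% of all UMIs. In these cells G2/M UMIs made up a median of 108 per 10000 (34.9 to 258), and in the other 1970 cells a median of 9.49 (highest 116), so the 2 sets overlapped on this measure.

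The cells with several G2/M genes were deeper than the rest, which a cut on the number of genes found favours. The depth was not particular to them, since the cells with 8 to 12 G2/M genes had a median of 4501 UMIs and 1885.5 genes. The 85 cells had a median of 4518 UMIs (1819 to 7351) and 1944 genes, against 3233.5 UMIs and 1439 genes in all other cells. Their median share of mitochondrial UMIs was 2.87% against 3.23%. Drawing every cell down to 2000 UMIs left out 299 cells, of which 2 had several G2/M genes, and 41 of the 1756 kept cells (2.33%, 1.68 to 3.15) still held 13 or more where the prediction was 0.000242. No doublet caller was run, and no cell had more than 2495 genes, under the 2500 that the study set as a limit.

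All 85 cells carried markers of AMs. Of 17 listed AM markers, 16 were in the data, and their summed level was 21024 CPM in the 85 cells and 26896 CPM in the others (ratio 0.782, 0.765 to 0.799), with medians per cell of 19154 and 25691 CPM. None of the 16 passed the limits used below in either direction. Chil3, the most abundant marker, was found in 85 of 85 cells (ratio 0.866, 0.842 to 0.892) and Siglecf, which encodes the sorted surface protein, in 36. Markers of 5 other cell types had 0 to 2 UMIs in the 85 cells, and those of 3 had more. None of the listed markers of eosinophils, mast cells, NK cells and fibroblasts was in the data, so these types could not be checked. The 4 interstitial macrophage markers had 1 UMI in all, the 2 dendritic cell and the 2 B cell markers had none, the 1 T cell marker had 1 and the 2 endothelial markers had 2. The 3 monocyte markers had 7 UMIs in 7 cells (ratio 2.05, 0.788 to 4.50), 5 of them from Ccr2. The 2 neutrophil markers had 17 UMIs in 14 cells (ratio 0.865, 0.498 to 1.41). The 5 epithelial markers had 120 UMIs, 91 of them from Epcam, in 57 of the 85 cells (67.1%) and in 62.3% of the others, at 294 CPM against 354 (ratio 0.829, 0.684 to 0.996). Their part in the results was not tested.

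Because these genes were found together, the sequence upstream of their starts was read for the letters that late cell-cycle genes are known to share. RefSeq promoters (GRCm38.p6, the assembly behind mm10) were matched for 46 of the 51 genes, all but Tpx2, Smc4, Aurkb, Dlgap5 and Cdca2, and the 250 bases before each start were searched on both strands. A gene was counted when any of its promoters held a match. TTTGAA or TTCGAA, the letters of the cell cycle homology region (CHR) that MuvB binds, occurred in 22 of the 46 (47.8%, 32.9 to 63.1). This compares with 14.8% of the 8947 genes in the data with a promoter and 17.1% of all 32851 promoters, which were counted singly. CCAAT, bound by NF-Y, occurred in 35 of the 46 (76.1%, 61.2 to 87.4), against 40.9% and 33.8%. Both in 1 promoter were found for 19 genes (41.3%, 27.0 to 56.8), against 5.85% and 6.02%. A match is a run of letters and not a shown site, and the motifs did not overlap in the sequences printed here. For Hmgb2, Cks1b, Tmpo, Cdca3, Aurka and G2e3 the bases after the RefSeq start did not match the beginning of a transcript in the GENCODE annotation. The promoters of 4 genes with both motifs, 1 with neither (Birc5) and that of Ctcf, the member with the lowest ratio in the comparison that follows, are shown 5′ to 3′ on the strand of the gene, with every match on either strand in capitals. TTCGAA reads the same on both strands, and CCAAT on the other strand reads ATTGG.
Cdk1: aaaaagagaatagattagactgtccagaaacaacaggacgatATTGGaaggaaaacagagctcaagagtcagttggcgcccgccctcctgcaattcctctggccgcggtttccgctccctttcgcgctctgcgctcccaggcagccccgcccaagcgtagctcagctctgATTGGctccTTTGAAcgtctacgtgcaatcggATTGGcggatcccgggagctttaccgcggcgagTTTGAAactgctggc
Ccnb2: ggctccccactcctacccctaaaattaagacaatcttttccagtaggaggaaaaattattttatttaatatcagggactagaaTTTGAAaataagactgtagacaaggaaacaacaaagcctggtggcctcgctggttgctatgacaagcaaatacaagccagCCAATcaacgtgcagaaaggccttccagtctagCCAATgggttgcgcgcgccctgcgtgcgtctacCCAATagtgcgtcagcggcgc
Top2a: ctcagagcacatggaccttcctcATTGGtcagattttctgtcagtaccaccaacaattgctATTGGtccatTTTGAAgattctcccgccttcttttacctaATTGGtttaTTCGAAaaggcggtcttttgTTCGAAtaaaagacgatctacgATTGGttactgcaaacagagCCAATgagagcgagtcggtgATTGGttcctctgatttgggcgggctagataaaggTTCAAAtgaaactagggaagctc
Cdc20: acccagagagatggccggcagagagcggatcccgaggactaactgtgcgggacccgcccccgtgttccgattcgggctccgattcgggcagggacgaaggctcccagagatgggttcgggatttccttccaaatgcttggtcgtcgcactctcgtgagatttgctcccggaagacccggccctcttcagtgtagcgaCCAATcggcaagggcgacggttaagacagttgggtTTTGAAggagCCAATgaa
Birc5: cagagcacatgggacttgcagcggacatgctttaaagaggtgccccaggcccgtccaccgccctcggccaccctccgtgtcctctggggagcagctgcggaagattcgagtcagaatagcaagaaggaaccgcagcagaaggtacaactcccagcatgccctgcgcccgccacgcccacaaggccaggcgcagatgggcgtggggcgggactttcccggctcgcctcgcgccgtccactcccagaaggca
Ctcf: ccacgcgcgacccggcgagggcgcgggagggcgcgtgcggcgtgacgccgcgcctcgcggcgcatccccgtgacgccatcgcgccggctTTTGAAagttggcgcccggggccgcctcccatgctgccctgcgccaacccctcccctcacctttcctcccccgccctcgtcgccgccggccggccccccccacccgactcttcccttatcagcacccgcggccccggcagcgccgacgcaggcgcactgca

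These windows lie at chr10:69352913-69353162, chr9:70421555-70421804, chr11:99024190-99024439 and chr4:118437344-118437593 on the minus strand and at chr11:117848987-117849236 and chr8:105636288-105636537 on the plus strand. Cdk1 had 2 CHR matches, at 71 and 15 bases before the RefSeq start, and 3 CCAAT matches. The GENCODE annotation starts Cdk1 at chr10:69352938, inside this window, so the match at 15 bases lies after that start. Top2a had 4 CHR matches, 2 of them TTCGAA, and 6 CCAAT matches. Ccnb2 and Cdc20 had 1 CHR match each, 167 and 18 bases before the start, with 3 and 2 CCAAT matches. Ctcf had 1 CHR match, at 161 bases, and no CCAAT, and that Birc5 had none says only that these letters are not in its window.

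To see which genes mark the cells with several, each gene was left out of the count that classed the cells, so that cells with 13 or more of the other 50 genes were compared with all remaining cells. This gave 76 to 85 cells per gene. The ratio of summed CPM was above 1 with its lower limit above 1 for all 51 genes and ranged from 1.94 (Ctcf) to 167 (Nek2), with a median of 19.8. With at least 20 UMIs and a lower limit above 2 as the call, 44 of the 47 genes with enough UMIs were called higher, whereas 3.14% of all 9405 genes were called when cells were classed by the whole list. The 3 not called were Ctcf, Gas2l3 and Psrc1, and the 4 with under 20 UMIs were Ckap2, Gtse1, Ttk and Cdca2. For 21 genes the ratio was over 30 and for 15 it was under 10. More than 50% of the UMIs of 31 genes lay in cells with several others, while such cells held about the share of all UMIs given above.

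Among the 8 genes of chromosome structure and chromatin, 7 were called. Top2a, the topoisomerase that untangles sister chromatids, had 232 UMIs in 79 cells with several others, 0 to 10 per cell with a median of 3, and 78 UMIs in the other 1976 cells. That is 602 CPM (527 to 684) against 11.4 (9.02 to 14.2), a ratio of 52.7 (40.6 to 69.1). It was found in 69 of the 79 cells (87.3%) and in 59 of the others (2.99%), mostly at 1 UMI. Mki67, which coats mitotic chromosomes and encodes Ki-67, had 79 UMIs against 31 and a ratio of 43.2 (28.2 to 67.8). Ncapd2, a condensin subunit, had a ratio of 17.9 (11.4 to 28.1), and Smc4, a core subunit of condensin, had 7.77 (6.44 to 9.34) and was found in 16.4% of the other cells as well. Hmgb2 was found in every one of 76 cells with several others, with 1 to 43 UMIs and a median of 11, and in 48.0% of the others. Its CPM was 2586 (2426 to 2755) against 220.0 (209 to 231), a ratio of 11.8 (10.8 to 12.8), so it was widespread and still higher in these cells. Cbx5, which encodes heterochromatin protein HP1α, and Anp32e had ratios of 5.00 (3.07 to 7.89) and 3.62 (2.89 to 4.50). Ctcf, the insulator protein that folds interphase chromatin, was found in 36.3% of 80 cells with several others and in 16.7% of the rest, and its ratio of 1.94 (1.36 to 2.69) was the lowest of all members. With several set at 5 genes the calls for Cbx5 and Anp32e were lost.

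The 9 genes of mitotic entry and protein turnover fell into a set rare outside cells with several others and a set present in many cells. Cdk1, the kinase that starts mitosis, had 121 UMIs in 83 cells with several others, 0 to 6 per cell with a median of 1, and 58 UMIs in the other 1972 cells. Its CPM was 302 (250.4 to 360.5) against 8.50 (6.46 to 10.99), a ratio of 35.5 (25.7 to 49.4). Ccnb2, a B-type cyclin partner of Cdk1, had a ratio of 20.1 (14.6 to 27.7). Both were found in about as many cells outside the class as in it, 51 against 54 for Cdk1 and 52 against 41 for Ccnb2, but at a lower CPM outside. The parts of the anaphase machinery ranked high. Ube2c, the ubiquitin-conjugating enzyme of the anaphase promoting complex, had 429 CPM (368 to 499) against 9.82 (7.61 to 12.5), a ratio of 43.7 (32.8 to 58.9), with up to 14 UMIs in 1 cell. Cdc20, the activator of that complex, had 35 UMIs in 18 cells against 16 UMIs in 12 (ratio 36.9, 19.9 to 71.3), and Cdca3, which promotes entry into mitosis, had a ratio of 37.9 (24.2 to 60.6). Gtse1, which binds microtubules and restrains p53, had 6 UMIs against 2. Cks1b and Cks2 were found in 84.6% and 90.9% of cells with several others, and in 24.5% and 44.8% of the rest. Their ratios were 5.53 (4.69 to 6.50) and 4.02 (3.55 to 4.55). G2e3, a ubiquitin ligase, had the lowest ratio of this role, 3.78 (2.32 to 5.93), and its call was lost when several meant 5 genes, as was that of Cks2, or 8 genes, at 2000 UMIs per cell and when cells were classed by S phase genes.

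Of 13 spindle genes 10 were called, 2 were not and 1 had too few UMIs. Kif11, the kinesin motor that pushes spindle poles apart, had 49 UMIs in 37 cells with several others and 12 UMIs in 11 of the other 1972 (ratio 69.4, 36.4 to 143). Hmmr, a microtubule-binding protein of the spindle pole, had 28 UMIs against 8 (ratio 59.0, 26.2 to 149.8), and Nusap1, which bundles spindle microtubules near chromosomes, had 109 against 46 (ratio 41.4, 29.0 to 59.7). Few cells outside the class held any of these 3 genes, at most 1.87% for Nusap1. Tpx2, which activates Aurora A on the spindle, had a ratio of 26.8 (17.4 to 41.6), and Aurka, Aurora A itself, had 13.5 (6.53 to 27.4) from 16 UMIs against 20. Tacc3, a partner of Aurora A at spindle microtubules, had 19.8 (12.8 to 30.6), Dlgap5, which stabilises microtubules near chromosomes, had 17.9 (8.04 to 40.0) and Ckap2l had 17.3 (10.5 to 28.3). Ckap2 had 15 UMIs against 3. The lowest ratios among those called were 4.88 (3.35 to 6.99) for Ckap5, a microtubule polymerase, and 4.12 (3.29 to 5.11) for Tubb4b. Gas2l3, which links actin and microtubules, had 75.9 CPM (51.6 to 108) against 25.2 (21.6 to 29.3), a ratio of 3.01 (1.98 to 4.43) just under the call. It was called among cells with at most 5% mitochondrial UMIs and when Hmgb2 and Tubb4b were left out. Psrc1, a spindle protein, had 6 UMIs against 19 (ratio 5.27, 1.72 to 13.7). At 2000 UMIs per cell the calls for Aurka, Hmmr and Dlgap5 were lost, and with several set at 5 genes those for Aurka, Ckap5 and Tubb4b.

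The chromosomal passenger complex, which corrects faulty kinetochore attachments, and its partners were called for all 4 genes with enough UMIs. Birc5, the survivin subunit, had 247 UMIs in 69 of 79 cells with several others, 0 to 12 per cell with a median of 3, and 127 UMIs in 102 of the other 1976. Its CPM was 646 (568 to 732) against 18.6 (15.5 to 22.1), a ratio of 34.8 (28.0 to 43.4). Cdca8, the borealin subunit, had 52 UMIs against 22 (ratio 39.8, 23.8 to 68.9), and Aurkb, the kinase of the complex, had 25 against 25 (ratio 17.1, 9.40 to 31.0). Kif2c, a kinesin that takes microtubules apart at kinetochores, had 20 UMIs in 16 cells against 3 UMIs in 3 cells, a ratio of 111 (33.0 to 585), and its call was lost at 2000 UMIs per cell. Cdca2, which recruits a phosphatase to chromosomes, had 13 UMIs against 3.

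All 8 tested of 9 kinetochore and centromere genes were called. Nek2, a kinase of centrosomes and kinetochores, had the highest ratio of the list, from 20 UMIs in 15 of 85 cells and 2 UMIs in 2 of the other 1970 (167, 40.5 to 1472). Its interval is wide because 2 UMIs carry the denominator. At 2000 UMIs per cell the calls for Nek2, Bub1, Nuf2 and Ndc80 were lost, where a gene left with under 20 UMIs could not be called. Bub1, a kinase of the spindle checkpoint, had 16 UMIs against 5 (ratio 54.4, lower limit 19.1), Nuf2 and Ndc80, which bind microtubules in 1 complex, had 51.2 (23.4 to 124) and 25.0 (10.5 to 62.3), and the checkpoint kinase Ttk had 6 UMIs against 3. Cenpf and Cenpe, large proteins of the outer kinetochore, had 42.6 (25.2 to 74.5) and 31.2 (18.4 to 54.2). Cenpa, the histone H3 variant that marks centromeres, had 132 UMIs against 130, up to 9 in 1 cell, and a ratio of 17.9 (13.9 to 22.97). Hjurp, the chaperone that deposits Cenpa, was found in 28.6% of cells with several others and in 4.87% of the rest (ratio 6.05, 4.04 to 8.89), the lowest of this role and not called with several set at 5 genes. With at most 5% mitochondrial UMIs the call for Ndc80 was lost.

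The nuclear envelope and cytokinesis genes were called for 3 of 3 and 4 of 4. Tmpo, a lamina-associated protein, was found in 85.9% of cells with several others and 10.3% of the rest, with 398 CPM (337 to 466) against 35.2 (30.9 to 40.0) and a ratio of 11.3 (9.15 to 13.9). Lbr, the lamin B receptor, had 9.17 (4.96 to 16.5). Rangap1, which drives nuclear transport and also sits at kinetochores, had 3.21 (2.23 to 4.52) and was found in 9.94% of the rest. For cytokinesis, Ect2, which activates RhoA at the division plane, had 28.2 (13.6 to 61.0), Kif20b 18.4 (7.43 to 46.0), Kif23, a motor of the central spindle, 15.1 (10.4 to 21.7) and Anln, the ring scaffold anillin, 7.43 (5.20 to 10.5). At 2000 UMIs per cell the calls for Ect2 and Kif20b were lost, and with several set at 5 genes those for Anln and Rangap1.

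**Figure D2:**
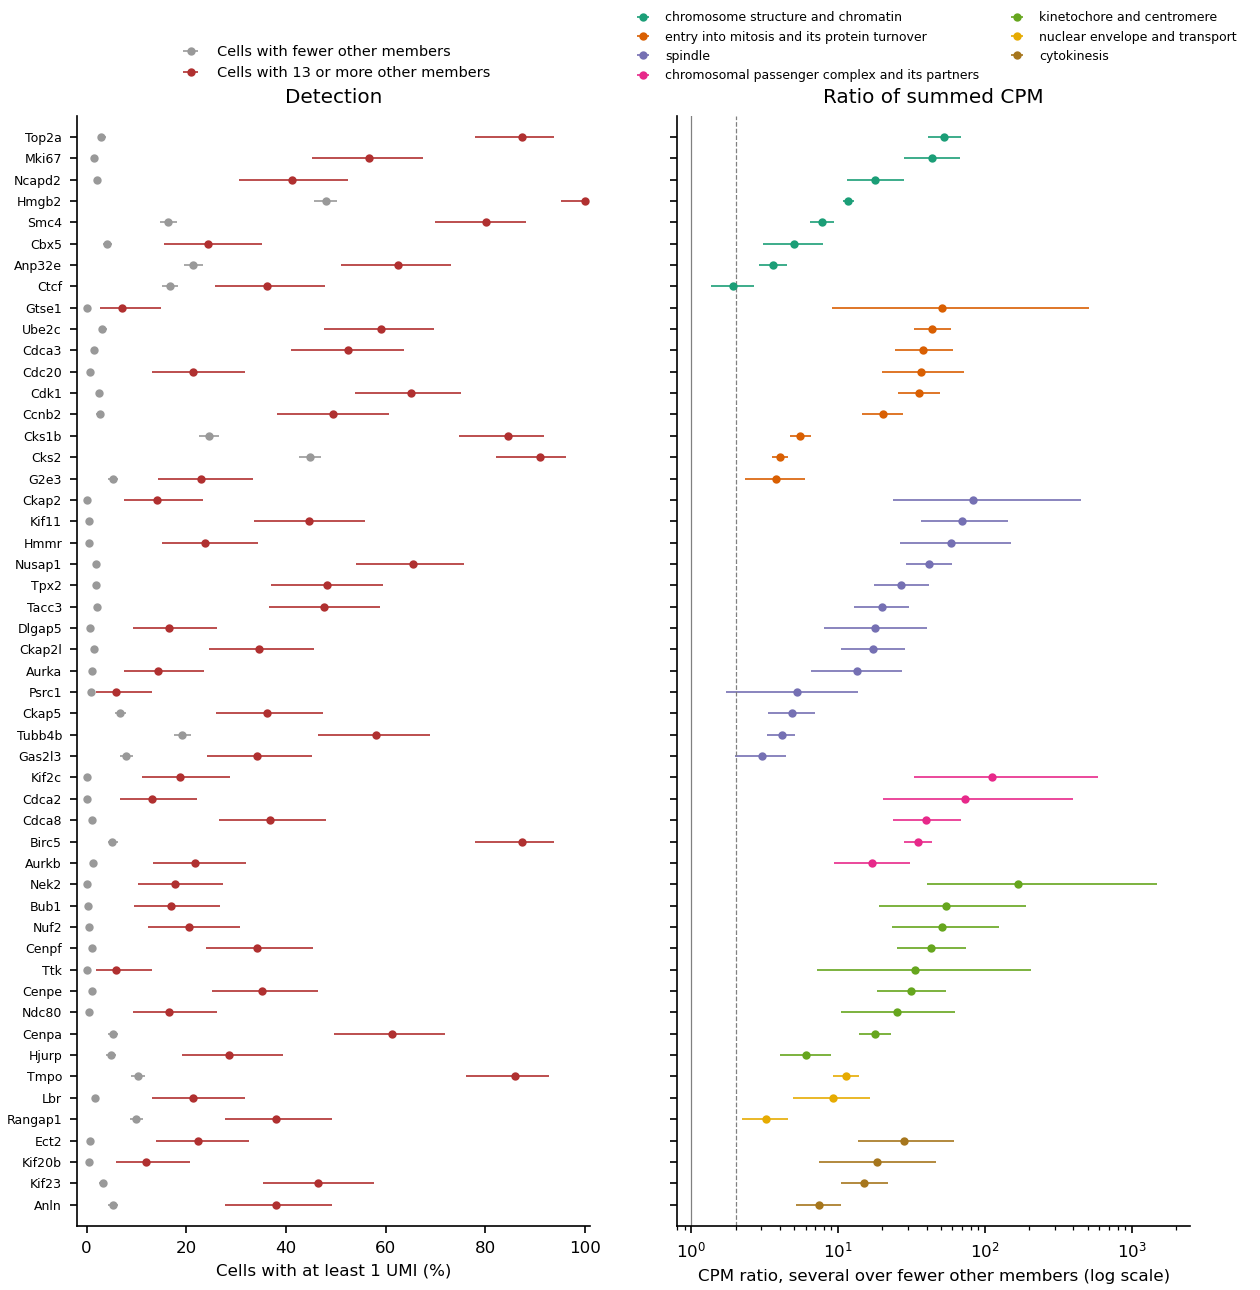
For each of the 51 genes, grouped by role, the share of cells with a UMI (left, percent) in cells with 13 or more of the other genes (red) and in the remaining cells (grey), and the ratio of summed CPM between these classes (right, log scale, coloured by role), with 95% counting intervals; the solid line marks 1 and the dashed line 2. Every point on the right lies above 1, from Ctcf at 1.94 to Nek2 at 167, and Hmgb2 and Cks2 stand out to the right among the grey points, at 48.0% and 44.8% of the remaining cells.

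Cells were also classed by genes that are not on the list. An equal number of cells, ties included, was first taken by other mitotic genes (93 cells with 11 or more of 58 genes, 78 of them among the 85). Of the 47 G2/M genes with enough UMIs 45 were called, and the median ratio of all 51 was 19.2. Cells were then taken by genes of S phase (100 cells with 8 or more of 43 genes, 58 of them among the 85). Of the 47 genes 42 were called, and the median ratio of all 51 was 9.63. The share of all genes called under these classes was not computed, so the counts have no background beside them.

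Pairs of the genes showed which were found in the same cells. Of 1275 pairs, 1069 were found together in at least 5 cells and 18 in none. Against the prediction from the share of UMIs, 418 of the 1069 (39.1%) were found together at least 3 times as often as depth gives, with a median of 2.33. Since that prediction counts too many cells for genes whose UMIs cluster, Hmgb2 and Ube2c came out at 0.541 (87 cells against 161). With the number of cells of each gene held at the observed one, 595 of the 1069 (55.7%) reached 3 times, the median was 3.76 and the range was 0.832 to 34.3. The values that follow use this second prediction, and they select for pairs seen together, since rarer pairs were left out.

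Pairs of genes that act in 1 structure lay on both sides of this median, and so did other pairs. Cdk1 and Ccnb2 shared 35 cells where 5.54 were predicted (6.31 times), and Birc5 and Cdca8, subunits of 1 complex, shared 35 where 5.14 were (6.81 times). Aurkb and Cdca8 shared 11 cells, 8.47 times the prediction. Below the median were Hjurp and Cenpa (2.31 times), the condensin subunits Smc4 and Ncapd2 (2.57 times) and Tmpo and Lbr of the nuclear envelope (3.22 times). Ndc80 and Nuf2 shared 4 cells where 0.341 were predicted (11.7 times), a high value that rests on fewer cells than the minimum of 5. Top2a and Birc5, which have unrelated roles, shared 78 cells (6.30 times), and Top2a and Mki67 shared 47 (8.63 times). The highest value was for Ckap2 and Nek2 with 5 cells against 0.146, which rests on few cells, and Nuf2 and Nek2 followed with 8 against 0.252. Genes found in many cells cannot reach high values on this measure: Hmgb2 was found in all 19 cells with Bub1, which gave 1.80, and Cks2 in all 8 cells with Ttk, which gave 1.92. Hmgb2 was found in 111 of the 128 cells with Top2a where 71.0 were predicted (1.56 times). Cks2 and Cks1b shared 304 cells (1.08 times), Hmgb2 and Cks2 shared 540 (1.05 times) and Anp32e and Ctcf 96 (1.03 times). The lowest value was for Ctcf and Gas2l3, with 31 cells against 37.3. For the rarest genes the minimum of 5 shared cells lets in high values alone, so the genes were not ranked by their pairs.

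**Figure D3:**
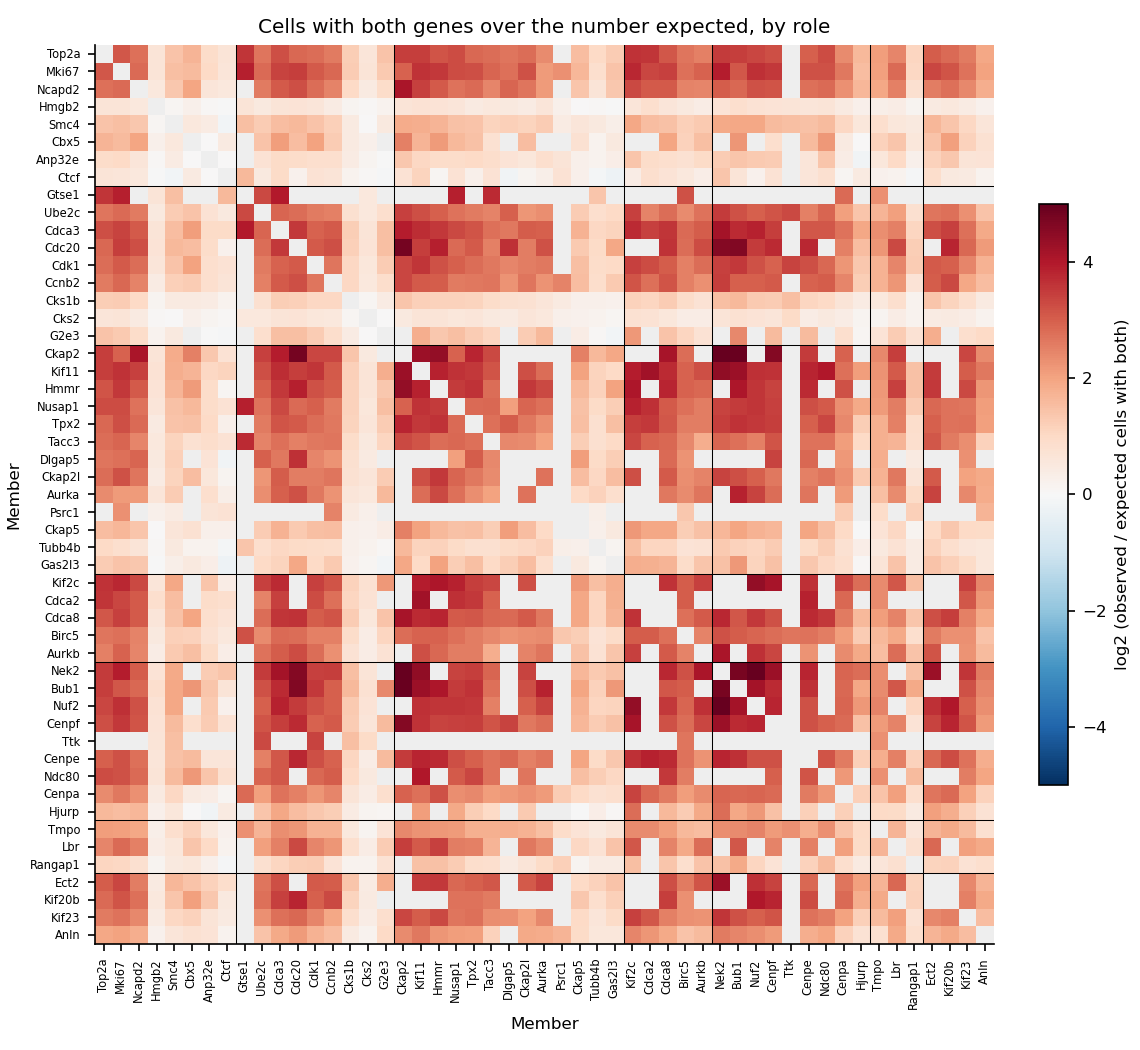
Cells in which both genes of a pair were found over the number predicted with the cells of each gene held at the observed number, as log2 (colour), for all pairs with at least 5 such cells (grey where fewer); genes are in the order of the plot of ratios and black lines separate roles. The rows of Hmgb2 and Cks2 are pale, where full overlap gives no more than 1.80 with Bub1 and 1.92 with Ttk, and dark fields run across roles.

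The G2/M genes were next set against a list of S phase genes, which act in DNA replication, 43 of 44 of them in the data. By the same limit of 10 times depth, 81 cells (3.94%, 3.14 to 4.88) held 9 or more S phase genes where 7.55 were predicted. Of the 85 cells with several G2/M genes 50 were among them (58.8%), which is 61.7% of the 81, and the product of the 2 shares would give 3.35 cells. A further 35 cells had several G2/M genes only, 31 had several S phase genes only and 1939 had neither. Cells with several S phase genes were 58.1% of those with 13 to 17 G2/M genes, 63.6% of those with 18 to 22 and 56.2% of those with 23 to 35. The groups differ in depth, with medians of 5273.5 UMIs in cells with both, 4293 with G2/M genes only, 4321 with S phase genes only and 3205 with neither.

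**Figure D4:**
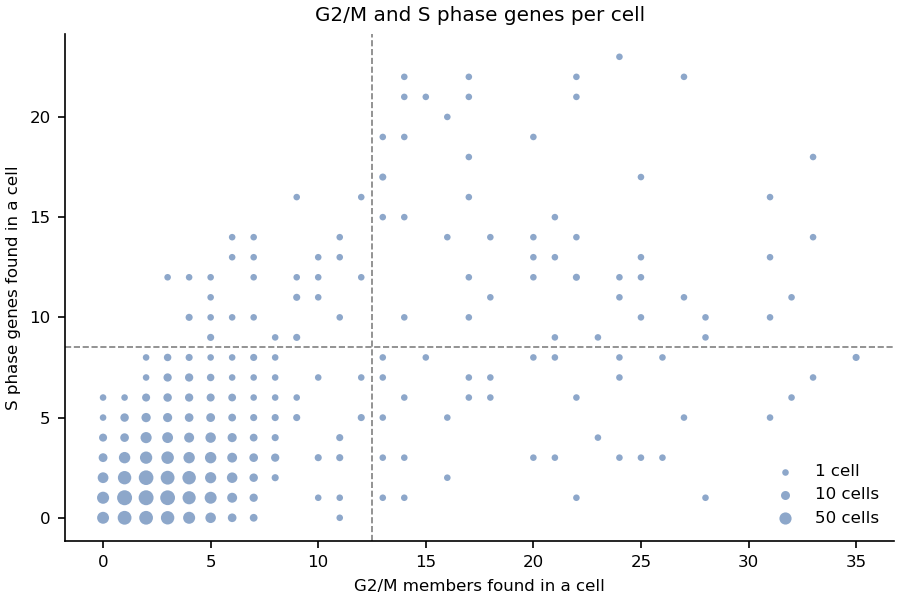
Number of S phase genes (vertical) against number of G2/M genes (horizontal) found in each of the 2055 cells, with point area growing with the number of cells at that position; dashed lines mark 13 G2/M and 9 S phase genes. The 50 cells with several of both, the 35 with G2/M genes only and the 31 with S phase genes only spread over the upper right, lower right and upper left fields.

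Within the 85 cells, a small set of G2/M genes was higher where few S phase genes were found. Over genes with at least 20 UMIs in these cells, the ratio of CPM in the 35 cells over the 50 cells had its lower limit above 1 for 7 of 41 G2/M genes, against 5.59% of all 3169 genes, and its upper limit below 1 for 1, against 6.47%. The median ratio was 1.22 for the G2/M genes and 0.998 for all genes. Cdc20 had 28 UMIs in 12 of the 35 cells and 8 UMIs in 7 of the 50, which is 184 CPM (122 to 266) against 31.2 (13.5 to 61.6) and a ratio of 5.88 (2.61 to 14.9). Cenpf had 2.94 (1.65 to 5.38), Hmmr 2.75 (1.23 to 6.45), Cenpa 2.49 (1.75 to 3.56) and Ube2c 2.33 (1.70 to 3.19). Ccnb2 and Cks2 had 1.68 (1.09 to 2.59) and 1.48 (1.18 to 1.85). As background, Cdc20 and Ube2c act at anaphase, and Cenpa is known to be expressed in G2. Cbx5 went the other way, with 4 UMIs against 24 (ratio 0.280, 0.0706 to 0.815). The intervals of Top2a (0.899, 0.682 to 1.18), Cdk1 (0.957, 0.649 to 1.40) and Hmgb2 (0.925, 0.812 to 1.05) held 1. All 85 cells were chosen by holding 13 or more of these same genes, with no gene left out, whereas most genes of the background had no part in that choice. The 35 cells with few S phase genes were also the shallower ones (median 4293 UMIs against 5273.5) and had to reach 13 genes with fewer UMIs. Higher ratios may therefore be in part fixed by the choice of cells. The part of depth and of this choice in these ratios was not tested.

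**Figure D5:**
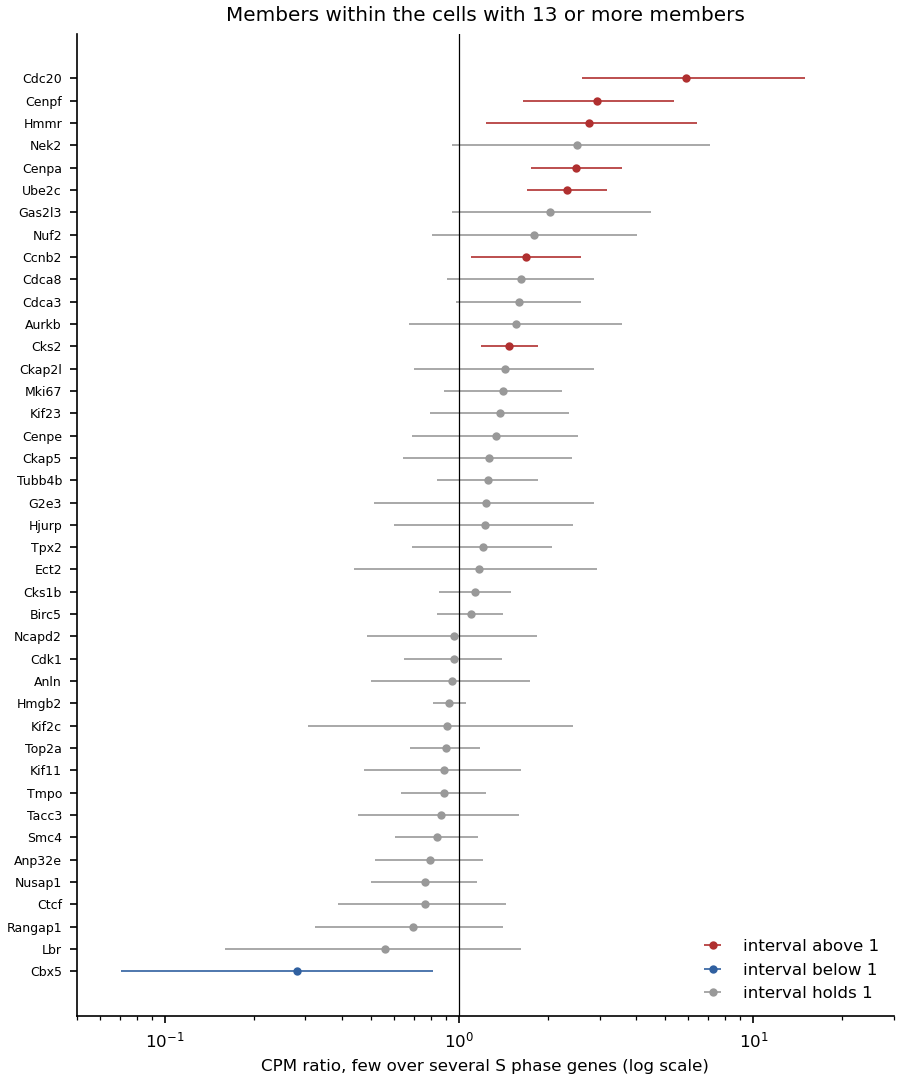
Ratio of summed CPM (log scale) between the 35 cells with few and the 50 cells with several S phase genes, all of them with 13 or more G2/M genes, for the 41 G2/M genes with at least 20 UMIs in these cells; bars are 95% counting intervals, red where above 1, blue where below and grey where they hold 1. The 7 red genes reach from Cks2 at 1.48 to Cdc20 at 5.88, and Cbx5 at 0.280 is the 1 blue gene.

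In the 31 cells with several S phase genes only, some G2/M genes were common and others were at 0 or 1 UMI. These cells were set apart by holding fewer than 13 G2/M genes, with no gene left out, so low values are in part fixed by the choice of cells and are given as a description. Tmpo was found in 21 of the 31 cells (258 CPM, 182 to 356), Hmgb2 in 29 (677 CPM, 549 to 826) and Top2a in 10 (126 CPM, 74.4 to 199). Kif11 had no UMI in the 31 cells, where the upper limit of its CPM was 25.7, against 133 CPM in cells with both. Cenpf, Ccnb2 and Hmmr had 1 UMI each. Values in cells with neither were lower still for Top2a, at 7.64 CPM, and for Hmgb2, at 201 CPM.

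Other genes of the cycle were read from 6 lists between the 85 cells and the rest, with the same call. By this call 3.14% of all 9405 genes were higher in the 85 cells. Of 47 tested mitotic genes that are not on the G2/M list 44 were called higher (median ratio 25.8). Depdc1a had 20 UMIs against 2 and Melk, a mitotic kinase, 27 against 4. Pttg1, the securin that holds back anaphase, was not called, with 32 UMIs against 493 (ratio 1.08, 0.733 to 1.55), nor was Hn1 (1.74, 1.53 to 1.97) or Lmnb1, lamin B1 (2.38, 1.82 to 3.08). Of 38 tested S phase genes 32 were called with a lower median of 5.97, from Rrm2, a subunit of ribonucleotide reductase (39.2, 29.7 to 52.2), to Pcna, the replication clamp (3.92, 3.38 to 4.54), and Slbp, the histone mRNA binding protein (3.38, 2.79 to 4.06). No gene of the 6 lists was called lower, and 0.0425% of all 9405 genes were.

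Subunits of the complexes around the G2/M proteins were less often called than these, with 3.14% of all 9405 genes as the background. For condensin and cohesin it was 8 of 14 (median 3.16). The condensin subunits Ncapg, with 16 UMIs against 4, and Smc2 (10.5, 8.25 to 13.3) were called. So were the cohesin subunits Rad21 (3.92, 3.13 to 4.88) and Smc3 (3.10, 2.27 to 4.15). Among those not called were the cohesin subunits Smc1a (2.67, 1.87 to 3.73) and Stag2 (1.25, 0.878 to 1.73). Wapl, which acts on cohesin, was not called either (1.29, 0.911 to 1.78). For the anaphase promoting complex it was 2 of 16 (median 1.54). Ube2s, its second ubiquitin-conjugating enzyme, had 5.14 (4.52 to 5.83) and Anapc5 had 2.97 (2.13 to 4.04), while the core subunits Cdc16 (1.14, 0.360 to 2.79) and Cdc27 (2.05, 1.11 to 3.52) were not called. The enzymes Ube2c and Ube2s, the activator Cdc20 and Anapc5 were thus called. The other 14 of the 16 listed genes of the complex were not, among them Fzr1 (3.00, 1.64 to 5.14), whose ratio was close to that of Anapc5.

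Of 20 tested regulators of cell cycle transcription 4 were called (median 2.24), against 3.14% of all 9405 genes. Foxm1, a forkhead activator of G2/M genes, had 14 UMIs against 6 (38.9, 14.1 to 124), Mybl2, which encodes B-MYB, 9 against 12 (12.5, 4.66 to 32.4), E2f2 18 against 33 (9.10, 4.82 to 16.6) and Rbl1, the pocket protein p107, 33 against 169 (3.26, 2.17 to 4.75). The constant MuvB subunit Lin37 (2.25, 1.04 to 4.38) and the NF-Y subunits Nfya (0.814, 0.384 to 1.53), Nfyb (2.03, 0.941 to 3.93) and Nfyc (1.58, 0.898 to 2.59) were not called. Of 17 tested G1 genes 5 were (median 1.25), among them the cyclin Ccne1, with 11 UMIs against 11 (16.7, 6.56 to 42.4), its kinase Cdk2 (3.40, 2.25 to 5.00) and the inhibitors Cdkn2c (18.1, 9.97 to 32.9) and Cdkn2d (8.56, 4.73 to 15.0). The fifth, Cdkn3 (27.5, 15.3 to 50.6), is a phosphatase of Cdk1 and Cdk2. Intervals lay below 1 but not below 0.5 for 4 G1 genes. They included Gadd45a, a stress-induced growth arrest gene (6 UMIs against 233, ratio 0.430, 0.156 to 0.949), and Ccnd2, a D-type cyclin (0.702, 0.591 to 0.829). The others were the antiproliferative genes Btg1 (0.741, 0.658 to 0.832) and Btg2 (0.706, 0.585 to 0.846). Other G1 genes that were not called had intervals above 1. These were Cdk4 (2.32, lower limit 1.59), Cdkn1a (1.25, lower limit 1.12) and Ccng2 (2.11, lower limit 1.34). The share of all genes with an interval below 1 is not given, so the 4 have no background beside them. The summed AM markers also lay below 1 between these cells (0.782, 0.765 to 0.799).

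Outside the G2/M list, 251 of 9358 tested genes were called higher in the 85 cells and 4 lower. The 10 with the largest ratios, among genes with at least 50 UMIs found in at least 20% of the 85 cells, all have known roles in the cycle. Hist1h2ap, a replication-dependent histone H2A gene, had 192 UMIs against 40 (ratio 80.1, 56.7 to 116), and Esco2, which acetylates cohesin in S phase, had 47 against 10 (78.4, 39.1 to 174). Ccna2, cyclin A2, had 70.1 (39.4 to 133) and Pbk, a mitotic kinase, 65.5 (35.1 to 131). 2810417H13Rik, also named Pclaf, a partner of the replication clamp, had 507 UMIs in 78 of the 85 cells against 178 (47.5, 40.0 to 56.7). Prc1, which bundles the central spindle, had 47.4 (27.7 to 84.7) and Racgap1, its partner in cytokinesis, 37.2 (24.7 to 57.1). Ccnb1, cyclin B1, had 35.9 (20.7 to 64.4) and Spc25, of the Ndc80 complex, 35.3 (24.3 to 52.0). Rrm2 completed the set. The 4 lower genes were Gpr155 (3 UMIs against 403), Tcp11l2 (5 against 421), Hist1h2bc, a histone H2B gene (23 against 1253, found in 23.5% and 41.0% of cells), and Jchain (2 against 1004, the latter in 64 cells). Jchain was found in 2.35% of the 85 cells and 3.25% of the others, so its call rests on many UMIs in few of the other cells.

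The deposited scaled scores, log values after regression on UMIs and mitochondrial share, are capped at 10, and 22 of the 51 genes reached the cap, at 129 of the 7538 values with a UMI (1.71%). For Gtse1 and Ttk every cell with a UMI, 8 each, was at the cap, and for Nek2 11 of 17 were, so differences in these scores understate such genes.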

How the data were processed

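Cells were captured with 10x 3′ chemistry. The authors aligned and counted reads with Cell Ranger (mm10), kept cells by genes and mitochondrial share in Seurat, removed ribosomal and some other genes, and deposited natural log values of 1 + UMIs per 10000. They also deposited a scaled score per gene, regressed on UMIs and mitochondrial share and capped at 10. Taken over the genes with values, the mitochondrial share of 384 cells exceeds the 5% limit the study states. The study does not say whether its share was taken before genes were removed, so the shares may differ. Here UMIs were recovered from the log values (100% whole within 0.01 UMI). The 51 genes and all lists were chosen with earlier results of these data known. With 1 library there was no replicate and no test. Genes with at least 20 UMIs were called where the 95% exact conditional binomial interval of the CPM ratio lay above 2 or below 0.5. All G2/M genes were described, other named genes being the 10 with the largest called ratios (at least 50 UMIs, in at least 20% of the cells with several), the called lower genes and examples from the lists, some chosen after their values were seen. Cells were also drawn down to 2000 UMIs (seed 1). Calculations were tested on simulated data and used Python 3.11.15, numpy 2.4.6, scipy 1.17.1 and pandas 2.3.3.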

Additional observations from a re-analysis of the deposited data

How the results depend on the processing

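With 1 library, no replicate could be left out. Depth limits the rare genes: 44 called G2/M genes became 33 at 2000 UMIs per cell, 34 with several set at 5 genes, 43 at 8 and 44 at 12, and 21 by a difference of 0.5 in the mean deposited log value. Observed over predicted cells with several was 17.6, and 118 with the number of cells of each gene held at the observed one (chosen after seeing the data), 16.6 with at most 5% mitochondrial UMIs, 169111 at 2000 UMIs and 225280.0 with shares of UMIs taken from cells with at most the median number of G2/M genes. The median number per cell was 2 at 2000 UMIs. The share of cells with several was 2.33% at 2000 UMIs, 21.7% at 5 genes and 6.37% at 8. Pairs at 5 times or more numbered 204. Of other genes, 105 were called at 5 genes, 1050 with a lower limit above 1, 154 above 3, 91 by the mean log difference and 632 with a constant of 0.1, and of the listed genes, 56 at 5 genes, 61 with at least 50 UMIs and 22 by the mean log difference. No called G2/M gene changed direction under the alternatives in which it had a value. For the counts and shares only a change of size could be recorded, and the causes were not tested.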
